A study of Mus musculus with 4 samples.

Results

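A set of 10 genes acting next to the pre-B cell receptor, of 23312 listed per library, was followed in sorted mouse bone marrow cells. The mice had received tamoxifen, meant to delete Cnot3 in those of the Cnot3 fl/fl genotype. The genes were taken by name, and all 10 were found and tested. They are the Src-family kinase genes Lyn, Blk and Fyn, the Syk-family kinase gene Syk, the Tec-family kinase gene Btk, the adaptor genes Blnk and Pik3ap1, the phospholipase gene Plcg2, and the phosphatase genes Inpp5d and Ptpn6. RNA was sequenced from B220+CD43+ cells of tamoxifen-treated C57BL/6 mice, 2 libraries from Cnot3 fl/fl RERTCre and 2 from Cnot3 +/+ RERTCre animals. The replicates are given as individual mice, and neither age nor sex is labelled. Both genotypes carried RERTCre, a tamoxifen-inducible Cre recombinase that is not restricted to B cells, and both received 1 mg tamoxifen on days 1, 2, 4 and 7 before analysis on day 10. The product of Cnot3 belongs to CCR4-NOT, a complex that trims the poly(A) tail of mRNAs. The comparison asks how the mRNA of each gene differed between the genotypes.

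The pre-B cell receptor pairs an immunoglobulin heavy chain with a surrogate light chain and signals through the Cd79a and Cd79b chains. Src-family kinases phosphorylate these chains, Syk is recruited to them, and Syk then phosphorylates the adaptor Blnk. Blnk brings Btk and Plcg2 together, and Pik3ap1 links the receptor to PI3-kinase. The lipid phosphatase made from Inpp5d (SHIP1) removes the PI3-kinase product that Btk binds, and the tyrosine phosphatase made from Ptpn6 (SHP-1) is recruited by inhibitory receptors. Most of these genes are also used by dendritic, myeloid and NK cells, and Fyn by T cells.

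Both phosphatase genes, the Src-family kinase gene Lyn and the Tec-family kinase gene Btk rose in Cnot3 fl/fl libraries, by 1.42- to 1.72-fold in mean FPKM (FPKM are fragment numbers corrected for transcript length and sequencing depth). Thus 4 of the 10 genes rose, 0 fell and 6 did not pass the test, against 6.22% of all 11017 genes tested that were called higher and 3.28% called lower (limma, adjusted p under 0.05). Among the 1539 genes tested with a mean level at least that of the lowest of the 10, 6.89% were called higher. At an unadjusted limma p under 0.05, 6 of the 10 were higher and 0 lower, against 18.5% and 15.3% of all genes tested. The genes that did not pass were Blk, Fyn, Syk, Blnk, Pik3ap1 and Plcg2. The median log2 fold change was 0.31 over the 10 genes and -0.01 over all genes tested. These counts are descriptions, because the 10 genes were chosen with earlier results of these data known.

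RefSeq promoter windows of the GRCm38.p6 build, from 250 bases before to 50 after a gene's start, were matched for 8 of the 10 genes and gave 9 windows. The other two are Lyn and Blk. The windows of 3 genes that rose are printed with that of Blnk, a gene that did not pass, so that they can be compared. Capitals mark AGGAAG, a core that ETS-family factors such as PU.1 recognise, on either strand.
Btk, chrX:134583091-134583390, minus strand: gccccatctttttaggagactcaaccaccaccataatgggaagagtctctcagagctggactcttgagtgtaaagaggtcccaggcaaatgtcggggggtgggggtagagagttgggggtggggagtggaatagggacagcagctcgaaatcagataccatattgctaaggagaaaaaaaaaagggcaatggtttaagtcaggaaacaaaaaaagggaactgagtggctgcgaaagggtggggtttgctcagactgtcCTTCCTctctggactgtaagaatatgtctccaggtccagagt
Inpp5d, chr1:87620062-87620361, plus strand: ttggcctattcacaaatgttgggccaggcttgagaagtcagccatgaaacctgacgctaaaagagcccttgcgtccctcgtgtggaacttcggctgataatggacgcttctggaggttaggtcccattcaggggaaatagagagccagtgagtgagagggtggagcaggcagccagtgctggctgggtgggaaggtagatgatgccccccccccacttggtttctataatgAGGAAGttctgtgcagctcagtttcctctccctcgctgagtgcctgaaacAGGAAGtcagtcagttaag
Ptpn6, chr6:124738660-124738959, minus strand: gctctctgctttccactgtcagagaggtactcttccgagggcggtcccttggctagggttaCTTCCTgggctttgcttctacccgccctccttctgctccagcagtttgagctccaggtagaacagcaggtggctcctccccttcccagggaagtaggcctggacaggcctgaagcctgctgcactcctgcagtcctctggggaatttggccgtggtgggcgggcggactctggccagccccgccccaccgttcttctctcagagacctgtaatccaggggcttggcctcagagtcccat
Blnk, chr19:40994172-40994471, minus strand: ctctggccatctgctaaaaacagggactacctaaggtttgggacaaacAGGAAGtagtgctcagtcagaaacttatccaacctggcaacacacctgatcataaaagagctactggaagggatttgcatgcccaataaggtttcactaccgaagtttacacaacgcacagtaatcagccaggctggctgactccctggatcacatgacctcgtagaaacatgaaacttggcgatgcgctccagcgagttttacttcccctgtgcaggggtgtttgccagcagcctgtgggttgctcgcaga

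AGGAAG stood in 5 of the 9 windows, those of Btk, Inpp5d, Ptpn6, Blnk and Pik3ap1, and in 35.4% of the 32851 windows in the table. The Inpp5d window held 2 copies and the other 4 windows 1 copy each. These were windows of 3 genes that rose and of 2 that did not pass. The E-box CAGGTG stood in 6 windows, those of Ptpn6, Plcg2, Blnk, Pik3ap1 and both of Syk, against 20.2% of all windows. The octamer ATTTGCAT stood in the Blnk window alone, against 1.74% of all windows. TATAAA stood in 0 of the 9 windows, against 13.6% of all. Both strands were searched, the letters were chosen with these windows and results known, and no match of one motif covered another. A match describes letters and not binding, and the sources used here do not give the start site these cells use.

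The deposited values hold no read counts. The absolute depth is therefore unknown, and the spacing of the lowest values put the other 3 libraries at an estimated 0.746 to 0.957 of the depth of Cnot3 fl/fl replicate 2. Between 14684 and 15126 genes were above 0 in a library. The libraries labelled Cnot3 fl/fl held 39.0 and 40.3 FPKM of the targeted gene Cnot3, against 41.6 and 39.3 FPKM in those labelled Cnot3 +/+, so its whole-gene level did not check the labels. One library stood apart: Cnot3 +/+ replicate 1 carried Y-linked transcripts, with Ddx3y at 16.0 FPKM and Xist at 0.0242 FPKM, whereas Xist was between 54.3 and 63.1 FPKM in the other 3. By these transcripts, that library came from a male mouse and the other 3 from female mice. Sex was thus unevenly spread over the genotypes and was not in the model, and its part in the differences was not tested. Values for each gene that rose are therefore also given without Cnot3 +/+ replicate 1. B-lineage markers were present, with Cd79b at 171 and 168 FPKM in Cnot3 fl/fl libraries, against 178 and 235 FPKM in Cnot3 +/+ libraries. Markers of plasmacytoid dendritic cells were abundant too, at 137 FPKM (Pacsin1) to 3306 FPKM (Bst2) in a library, with Siglech at 1115 and 1331 FPKM in Cnot3 fl/fl libraries, against 1456 and 1370 FPKM in Cnot3 +/+ libraries. Transcripts of other cell types were thus part of every library.

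**Figure D1:**
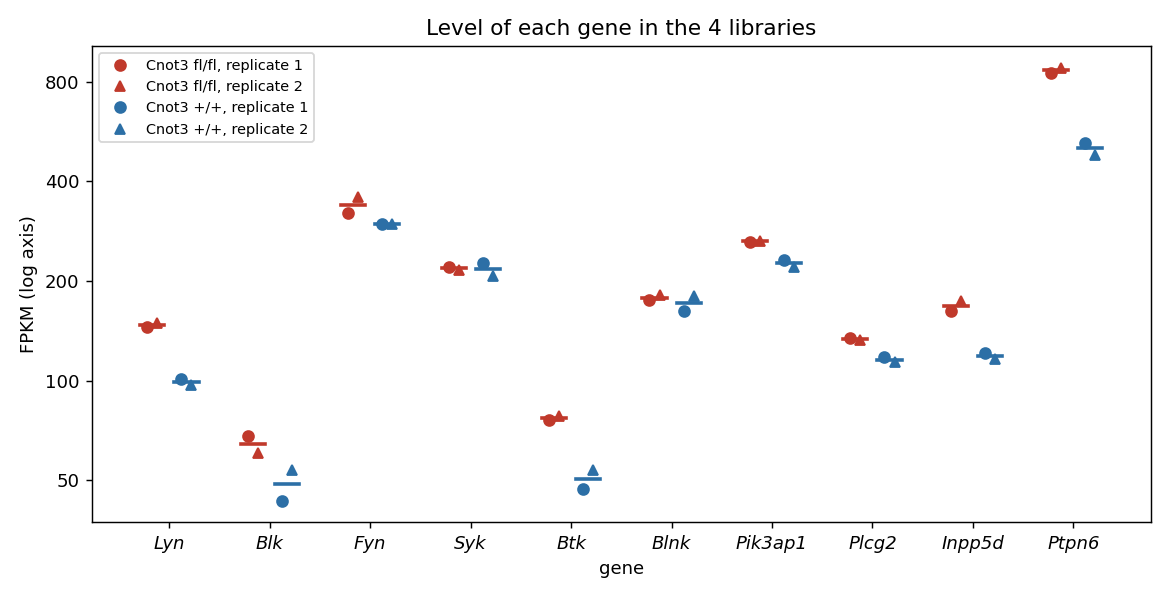
FPKM of the 10 genes (log axis) in each library, with circles for replicate 1, triangles for replicate 2 and a bar at the mean of each genotype. The Cnot3 fl/fl libraries lie above both Cnot3 +/+ libraries in 8 genes and overlap them in Syk and Blnk.

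All 10 genes were abundant. Their mean levels over the 4 libraries ran between 56.4 FPKM for Blk and 684 FPKM for Ptpn6, that is, between the 86.0 and 99.6 percentiles of the genes tested. The order by mean FPKM was Ptpn6, Fyn, Pik3ap1, Syk, Blnk, Inpp5d, Plcg2, Lyn, Btk and Blk. Ptpn6, Fyn, Pik3ap1, Syk, Blnk and Inpp5d held the first 6 places in that order in every library. Between the replicates of 1 genotype, the ranges of neighbours overlapped in Cnot3 +/+ libraries for Pik3ap1 and Syk, Inpp5d and Plcg2, and Btk and Blk. They overlapped for no pair in Cnot3 fl/fl libraries. Compared within a library, Pik3ap1 stood above Syk and Inpp5d above Plcg2 in all 4, and Btk above Blk in 3. The one change of place shared by both libraries of a genotype was that of Lyn, which stood above Plcg2 in both Cnot3 fl/fl libraries and below it in both Cnot3 +/+ libraries.

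Ptpn6 had the highest level of the 10 and the largest fold change. It measured 851 and 881 FPKM in Cnot3 fl/fl libraries, against 523 and 481 FPKM in Cnot3 +/+ libraries. The groups were far apart relative to their spread, with means of 866 ± 21.4 FPKM and 502 ± 29.8 FPKM (SD, n = 2 each). It rose 1.72-fold, with a log2 fold change of 0.79 (standard error 0.12; limma, adjusted p = 0.040). Without Cnot3 +/+ replicate 1, which leaves a single Cnot3 +/+ library, the log2 fold change was 0.85. Ptpn6 made up 35.2% and 35.3% of the summed FPKM of the 10 genes in Cnot3 fl/fl libraries and 28.0% and 26.4% in Cnot3 +/+ libraries.

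Inpp5d, the other phosphatase gene, measured 162 and 174 FPKM in Cnot3 fl/fl libraries, against 121 and 116 FPKM in Cnot3 +/+ libraries. Both Cnot3 fl/fl values lay above both Cnot3 +/+ values, and Inpp5d rose 1.42-fold, with a log2 fold change of 0.50 (standard error 0.08; limma, adjusted p = 0.042). Without Cnot3 +/+ replicate 1, which leaves a single Cnot3 +/+ library, the log2 fold change was 0.53. Inppl1, which encodes the related phosphatase SHIP2, measured 29.3 and 32.5 FPKM in Cnot3 fl/fl libraries, against 42.6 and 36.1 FPKM in Cnot3 +/+ libraries (log2 fold change -0.34, adjusted p = 0.12). Ptpn11, which encodes SHP-2, the close relative of the Ptpn6 product, measured 22.1 and 22.6 FPKM in Cnot3 fl/fl libraries, against 27.0 and 25.8 FPKM in Cnot3 +/+ libraries (log2 fold change -0.23, adjusted p = 0.11). These relatives, named after their values were seen, did not pass, and their values lay below those of Cnot3 +/+ libraries in both Cnot3 fl/fl libraries.

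Among the Src-family kinases, 1 of 3 genes rose. Lyn encodes the kinase that both starts receptor signalling and phosphorylates inhibitory receptors. It measured 146 and 149 FPKM in Cnot3 fl/fl libraries, against 101 and 97.1 FPKM in Cnot3 +/+ libraries. The replicates of each genotype lay within a few FPKM of each other, and Lyn rose 1.49-fold, with a log2 fold change of 0.57 (standard error 0.08; limma, adjusted p = 0.036). Without Cnot3 +/+ replicate 1, which leaves a single Cnot3 +/+ library, the log2 fold change was 0.60. In the authors' annotation the Lyn locus overlaps 1 other listed gene, 6330407A03Rik, which was between 0.0743 and 0.236 FPKM, and no locus of another listed gene overlaps the other 9.

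Blk, a Src-family kinase gene known mainly from the B lineage and also from plasmacytoid dendritic cells, measured 68.2 and 60.4 FPKM in Cnot3 fl/fl libraries, against 43.4 and 53.7 FPKM in Cnot3 +/+ libraries. The groups did not overlap, but Blk had the widest scatter of the 10 between replicates relative to its mean, with SDs of 5.52 FPKM around a mean of 64.3 and 7.28 FPKM around 48.6. Its log2 fold change of 0.40 (95% interval 0.05 to 0.75) did not pass (limma, adjusted p = 0.12). Fyn, which T cells also express, was the most abundant kinase gene of the 10, at 320.4 and 358 FPKM in Cnot3 fl/fl libraries, against 296.9 and 297.1 FPKM in Cnot3 +/+ libraries. Its log2 fold change of 0.19 (95% interval -0.08 to 0.46) did not pass either (adjusted p = 0.27).

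The remaining kinases went separate ways. Btk, the X-linked gene that is mutated in X-linked agammaglobulinaemia in humans, measured 76.1 and 78.0 FPKM in Cnot3 fl/fl libraries, against 47.0 and 53.6 FPKM in Cnot3 +/+ libraries. Both Cnot3 fl/fl values lay above both Cnot3 +/+ values, and Btk rose 1.53-fold, with a log2 fold change of 0.61 (standard error 0.09; limma, adjusted p = 0.040). The lower Cnot3 +/+ value was that of replicate 1, the library with Y-linked transcripts. Without it, with a single Cnot3 +/+ library left, the log2 fold change was 0.51. Syk measured 220.0 and 216 FPKM in Cnot3 fl/fl libraries, against 227 and 207 FPKM in Cnot3 +/+ libraries, so both Cnot3 fl/fl values lay between the Cnot3 +/+ values. Its log2 fold change was 0.01 (95% interval -0.23 to 0.25; adjusted p = 0.96). This interval excludes the estimates of the 4 genes that rose, although no test of the difference between genes was run.

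The adaptor and phospholipase genes had smaller differences than the 4 genes that rose. Blnk measured 175 and 181 FPKM in Cnot3 fl/fl libraries, against 162 and 181 FPKM in Cnot3 +/+ libraries, which overlapped, with a log2 fold change of 0.05 (95% interval -0.19 to 0.30). Pik3ap1, which encodes the adaptor BCAP, measured 263 and 264 FPKM in Cnot3 fl/fl libraries, against 231 and 221 FPKM in Cnot3 +/+ libraries, and Plcg2, whose enzyme makes the second messengers for calcium and PKC, at 134 and 133 FPKM in Cnot3 fl/fl libraries, against 118 and 114 FPKM in Cnot3 +/+ libraries. In both genes the genotypes did not overlap. The log2 fold changes were 0.22 for Pik3ap1 (95% interval -0.01 to 0.44; adjusted p = 0.16) and 0.20 for Plcg2 (95% interval 0.01 to 0.40; adjusted p = 0.14). Blnk and Pik3ap1 lie 280 kb apart on chromosome 19 in the files' mm9 loci.

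**Figure D2:**
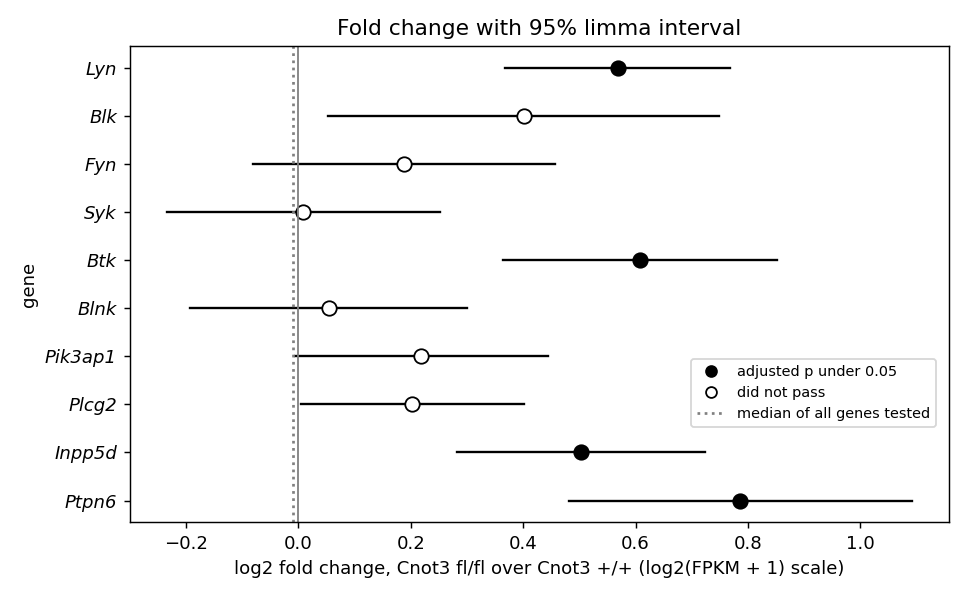
Log2 fold change of each gene, Cnot3 fl/fl over Cnot3 +/+, on the log2(FPKM + 1) scale, with bars for the 95% limma interval (2 libraries per genotype); filled points passed the test. Ptpn6, Btk, Lyn and Inpp5d lie between 0.50 and 0.79, and the intervals of Fyn, Syk, Blnk and Pik3ap1 include 0.

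In 8 of the 10 genes both Cnot3 fl/fl libraries lay above both Cnot3 +/+ libraries, against 32.7% of all genes tested, and in 0 genes both lay below, against 31.7%. The FPKM of the 10 genes summed to 2416 and 2494 in Cnot3 fl/fl libraries and to 1871 and 1821 in Cnot3 +/+ libraries. Leaving Ptpn6 out, the sums were 1565 and 1613 FPKM in Cnot3 fl/fl libraries, against 1347 and 1340.0 FPKM in Cnot3 +/+ libraries. Ratios within a library do not depend on how libraries were scaled. Syk, the denominator used here, had the smallest log2 fold change of the 10 genes (0.01). Ratios to it therefore largely repeat the differences in FPKM and are not separate support. Per Syk, Ptpn6 stood at 3.87 and 4.07 in Cnot3 fl/fl and at 2.30 and 2.32 in Cnot3 +/+ libraries, and Lyn at 0.662 and 0.689 in Cnot3 fl/fl, against 0.445 and 0.469 in Cnot3 +/+ libraries. The Btk ratio was 0.346 and 0.360 in Cnot3 fl/fl, against 0.207 and 0.259 in Cnot3 +/+ libraries, and that of Inpp5d 0.738 and 0.804 in Cnot3 fl/fl, against 0.531 and 0.560 in Cnot3 +/+ libraries. These 4 ratios did not overlap between the genotypes, nor did those of Blk, Fyn, Pik3ap1 and Plcg2, while that of Blnk did. Of all 11016 genes tested besides Syk, 30.6% had a ratio to Syk that was higher in both Cnot3 fl/fl libraries. An exact permutation test of a single ratio in 2 against 2 libraries cannot go below p = 0.33, so none was used.

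In the authors' deposited table, 1 of the 10 genes was marked as significant: Btk, with a q-value of 0.038. Of the 12154 genes with status OK in the authors' deposited table, 4.08% were significant and higher. The authors' deposited table gave q-values of 0.096 for Lyn, 0.12 for Ptpn6, 0.23 for Inpp5d and 0.24 for Blk, and of 0.68 or more for the other 5. It rests on the same 4 libraries. All 4 limma calls had an adjusted p between 0.036 and 0.042, close to the threshold. With any single library left out, of either genotype, 0 of the 10 genes passed, the smallest adjusted p being 0.079, and 2 to 34 of all genes were called higher. At an unadjusted limma p under 0.05 it was then 4 or 5 of the 10, against 18.7% to 30.4% of all genes tested. The number called was also 0 with no filter on low values (7 at an unadjusted p under 0.05, against 26.9% of all genes), 1 (Ptpn6) with no mean-variance trend, and 3 with the replicate number as a block, where Inpp5d did not pass (adjusted p = 0.053). The log2 fold changes of these 4 genes stayed between 0.45 and 0.91 in the 13 alternatives run.

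**Figure D3:**
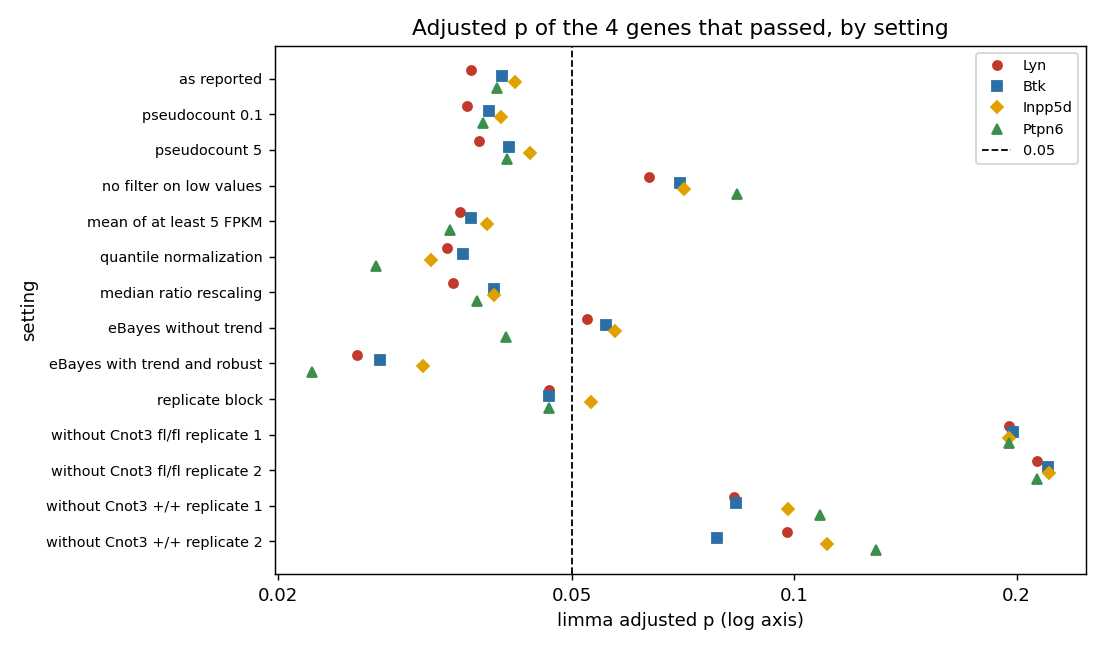
Limma adjusted p (log axis) of Lyn, Btk, Inpp5d and Ptpn6 as reported and in 13 alternative settings, with a dashed line at 0.05. All 4 lie right of the line without any 1 library and without a filter on low values, and left of it with both other pseudocounts and both rescalings.

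The chains of the receptor itself lay on the other side. Of 9 tested genes of receptor chains and coreceptors, 5 fell, 0 rose and 4 did not pass (limma; 7 lower and 0 higher at an unadjusted p under 0.05), with a median log2 fold change of -1.06. Among those that fell were the surrogate light chain genes Igll1, Vpreb1 and Vpreb3 and the signalling chain gene Cd79a. The log2 fold change of Vpreb1 was -3.31, and Cd79a measured 62.4 and 66.2 FPKM in Cnot3 fl/fl libraries, against 111 and 152 FPKM in Cnot3 +/+ libraries. Cd79b, the partner of Cd79a, measured 171 and 168 FPKM in Cnot3 fl/fl libraries, against 178 and 235 FPKM in Cnot3 +/+ libraries (adjusted p = 0.28). In these bulk libraries, fewer cells of a type and less RNA per cell cannot be told apart.

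Across 6 lists with 102 tested genes of the pathway, 3 rose, 3 fell and 96 did not pass. Each direction thus held 2.94%, against 6.22% of all genes called higher and 3.28% called lower. Of 9 other Src, Syk and Tec family kinases and Csk, 0 passed (limma; 2 at an unadjusted p under 0.05, against 33.8% of all genes tested), and the smallest p-values were those of Src, at 6.22 and 6.85 FPKM in Cnot3 fl/fl libraries, against 4.36 and 4.04 FPKM in Cnot3 +/+ libraries (log2 fold change 0.54, adjusted p = 0.054), and Tec (0.31, adjusted p = 0.11). Csk, which restrains Src-family kinases, had a log2 fold change of -0.11 and measured 255 and 259 FPKM in Cnot3 fl/fl libraries, against 279 and 275 FPKM in Cnot3 +/+ libraries. Of 22 other adaptors and nucleotide exchange factors 0 passed (limma; 9 at an unadjusted p under 0.05, against the same 33.8%). The smallest adjusted p-values there were 0.055 for Themis2 (log2 fold change 0.37) and 0.059 for the exchange factor gene Vav2 (-0.45).

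Of 21 inhibitory receptors, phosphatases and ligases, 1 rose and 2 fell. The receptor gene Cd5 rose, with 13.2 and 9.16 FPKM in Cnot3 fl/fl libraries, against 4.11 and 5.17 FPKM in Cnot3 +/+ libraries (log2 fold change 1.10, adjusted p = 0.045). The Fc receptor-like gene Fcrla fell (log2 fold change -0.74, adjusted p = 0.042). The median log2 fold change of this list was -0.12, and Cd5 was its only gene that rose. Of 14 PI3-kinase, Akt and Foxo genes 1 rose, the catalytic subunit gene Pik3cb (log2 fold change 0.58, adjusted p = 0.046). Pik3cd, the subunit gene with the next smallest p, measured 232 and 223 FPKM in Cnot3 fl/fl libraries, against 186 and 164 FPKM in Cnot3 +/+ libraries (0.38, adjusted p = 0.077).

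Downstream of Plcg2, 1 of 19 calcium, PKC and NF-kappaB bridge genes rose and 1 fell. The calcium channel gene Orai1 rose, with 18.4 and 18.5 FPKM in Cnot3 fl/fl libraries, against 13.2 and 12.9 FPKM in Cnot3 +/+ libraries (log2 fold change 0.47, adjusted p = 0.042). Prkcb, which encodes the PKC isoform of B cell receptor signalling, fell, with 43.9 and 44.1 FPKM in Cnot3 fl/fl libraries, against 71.3 and 69.0 FPKM in Cnot3 +/+ libraries (log2 fold change -0.66, adjusted p = 0.028). Of 17 Ras and MAP kinase genes 0 passed (limma; 4 at an unadjusted p under 0.05, against 33.8% of all genes), and the smallest adjusted p-values were 0.077 for Hras1 (log2 fold change -0.32) and 0.083 for Map2k1 (0.27). The medians of these lists were -0.10 for PI3-kinase genes, -0.03 for calcium and PKC genes and -0.14 for Ras genes.

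**Figure D4:**
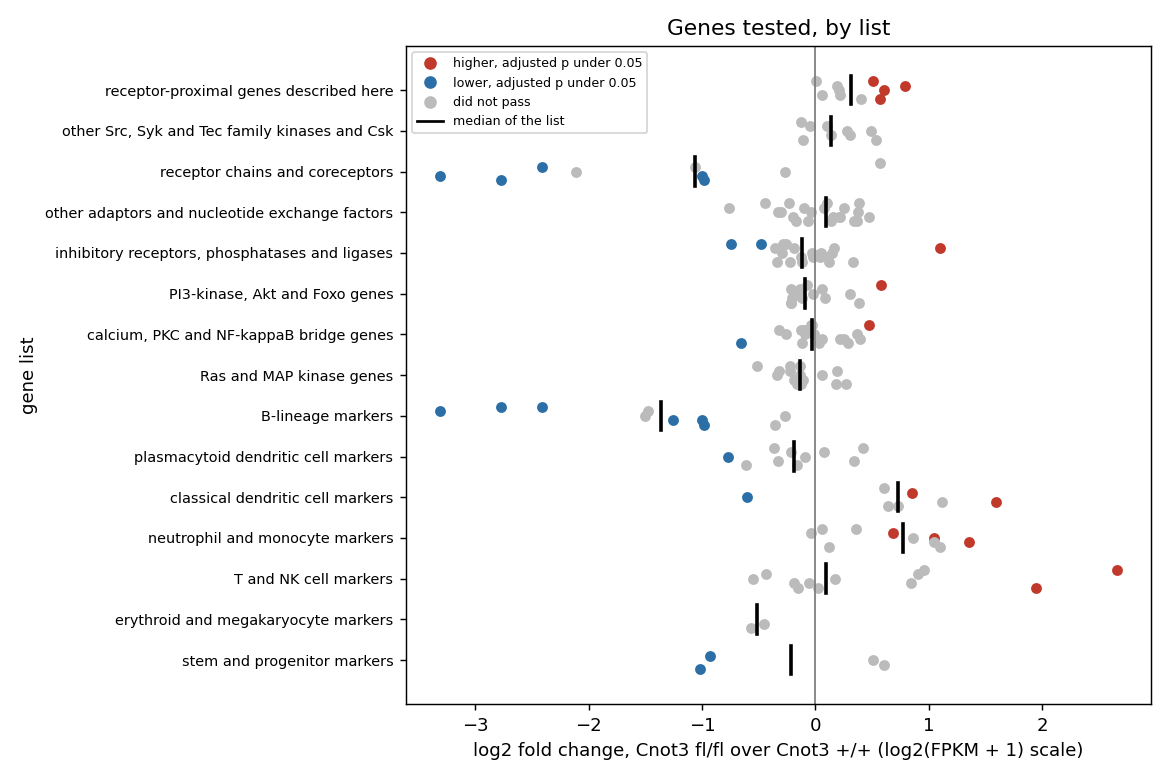
Log2 fold change (Cnot3 fl/fl over Cnot3 +/+, log2(FPKM + 1) scale) of each gene tested, 1 row per list, coloured by the limma call, with a black bar at the median of the list. The median is 0.31 for the 10 receptor-proximal genes, -1.06 for receptor chains and between -0.14 and 0.14 for the other pathway lists. Among marker lists it is 0.77 for neutrophil and monocyte, 0.73 for classical dendritic and 0.09 for T and NK cells. It is -0.19 for plasmacytoid dendritic, -0.21 for stem and progenitor, -0.51 for erythroid and megakaryocyte and -1.37 for B-lineage markers. Some genes stand in the receptor and the B-lineage rows.

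Markers of the cells that share these genes were measured beside them. The FPKM of 10 B-lineage markers summed to 375 and 347 in Cnot3 fl/fl libraries and to 646 and 1018 in Cnot3 +/+ libraries, and 6 of the 10 fell, among them Pax5 (log2 fold change -1.26). Plasmacytoid dendritic cell markers summed to 8574 and 10103 FPKM in Cnot3 fl/fl libraries, against 10850 and 10363 FPKM in Cnot3 +/+ libraries. Of 10, 1 fell, Cox6a2 (-0.77), and the most abundant, Bst2, Irf8 and Ly6d, did not pass (-0.16, 0.08 and -0.62). Markers of classical dendritic cells summed to 572 and 727 FPKM in Cnot3 fl/fl libraries, against 493 and 502 FPKM in Cnot3 +/+ libraries. Of 7 tested, Zbtb46 (1.59) and Clec9a (0.85) rose, Clec10a (-0.60) fell, and the abundant Flt3 and Itgax did not pass (0.61 and 0.64). Zbtb46 was at a low level, with 3.82 and 4.19 FPKM in Cnot3 fl/fl libraries, against 0.715 and 0.599 FPKM in Cnot3 +/+ libraries. Xcr1, another gene of this list, was under 1 FPKM in every library.

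Neutrophil and monocyte markers summed to 1225 and 1405 FPKM in Cnot3 fl/fl libraries, against 899 and 1194 FPKM in Cnot3 +/+ libraries. Most of each sum was Ly6c2 alone, at 998 and 1247 FPKM in Cnot3 fl/fl libraries, against 757 and 996 FPKM in Cnot3 +/+ libraries. Of 10 tested, Elane, Ctsg and Itgam rose (log2 fold changes 1.04, 1.35 and 0.68), and the abundant Ly6c2, S100a9 and S100a8 did not pass (0.36, 0.06 and -0.04). Elane and Ctsg were low, at 3.1 to 5.5 FPKM in Cnot3 fl/fl libraries, against 0.88 to 2.3 FPKM in Cnot3 +/+ libraries. Itgam measured 10.9 and 9.33 FPKM in Cnot3 fl/fl libraries, against 5.77 and 6.06 FPKM in Cnot3 +/+ libraries. Csf3r and Fcgr1 were under 1 FPKM in every library. T and NK cell markers summed to 964 and 851 FPKM in Cnot3 fl/fl libraries, against 614 and 626 FPKM in Cnot3 +/+ libraries. Of the 12 markers in these sums, Cd8a held 129 and 135 FPKM in Cnot3 fl/fl libraries, against 15.7 and 25.7 FPKM in Cnot3 +/+ libraries. Cd8b1 held 167 and 188 FPKM in Cnot3 fl/fl libraries, against 33.4 and 61.0 FPKM in Cnot3 +/+ libraries. Of 12, Cd8a and Cd8b1 rose (2.65 and 1.95), which dendritic cells can also express, while Cd4 and Nkg7 did not pass (-0.44 and 0.02), nor did the T-cell receptor genes Cd3d, Cd3e and Cd3g (-0.16, -0.19 and -0.55). The NK and cytotoxic cell genes Klrd1, Ncr1 and Gzmb did not pass (0.91, 0.96 and 0.84, with limma adjusted p = 0.062, 0.18 and 0.12). Both Cnot3 fl/fl libraries lay above both Cnot3 +/+ libraries in each, as in 32.7% of all genes tested. The genotypes overlapped in Klrb1c, Prf1 and Nkg7, the other NK and cytotoxic cell genes of the list (0.17, -0.05 and 0.02). Klrd1 measured 127 and 134 FPKM in Cnot3 fl/fl libraries, against 85.1 and 56.1 FPKM in Cnot3 +/+ libraries. Of 4 stem and progenitor markers tested, Meis1 and Hoxa9 fell (-0.93 and -1.02), and Ly6a and Kit did not pass (0.50 and 0.60). Meis1 and Hoxa9 were low, at 1.70 to 5.67 FPKM in a library. Cd34, too low to be tested, lay the other way, at 1.42 and 0.989 FPKM in Cnot3 fl/fl libraries, against 0.0464 and 0.108 FPKM in Cnot3 +/+ libraries. The stem and progenitor list summed to 313 and 397 FPKM in Cnot3 fl/fl libraries, against 158 and 418 FPKM in Cnot3 +/+ libraries. Most of each sum was Ly6a alone, at 300 and 387 FPKM in Cnot3 fl/fl libraries, against 142 and 405 FPKM in Cnot3 +/+ libraries. Of 2 erythroid and megakaryocyte markers tested, Hba-a1 and Hbb-b1, 0 passed by limma or at an unadjusted p under 0.05, and the list summed to 22.8 and 39.8 FPKM in Cnot3 fl/fl libraries, against 29.3 and 62.8 FPKM in Cnot3 +/+ libraries. The part of any of these cells in the values of the 10 genes was not tested.

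For each gene that rose, the tested genes with the most similar profile were taken by the root-mean-square difference of centred log2(FPKM + 1) values over the 4 libraries. They were Zbtb32, Dhrs1 and 1700010I14Rik for Lyn (differences of 0.0056 to 0.015), and G6pdx, Exosc7 and Smu1 for Btk (0.024 to 0.030). For Inpp5d they were Jak2, Usp8 and Ppil2 (0.012 each), and for Ptpn6 Ociad2, Gpr160 and Plekha5 (0.0097 to 0.023). With 4 libraries such likeness is common: 574 tested genes lay within 0.1 of Lyn, 318 of Btk, 792 of Inpp5d and 174 of Ptpn6.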

How the data were processed

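The authors deposited 1 FPKM value per gene and library and a comparison table with p-values and q-values, per the file headers; the submitters' processing notes name TopHat2 2.0.13, Bowtie2 2.2.3.0, Cufflinks 2.2.1, Cuffnorm 2.2.1 and mm9. The sources used here do not give their roles, the annotation, the use of strand or how libraries were scaled. Libraries were made with a stranded mRNA kit and 15 PCR cycles, per the labels' protocols.

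The 11017 genes averaging 1 FPKM or more were tested on log2(FPKM + 1) with limma 3.58.1 in R 4.3.3 (trended eBayes, two-sided, genotype only; 2 residual and 2.69 prior degrees of freedom), with Benjamini-Hochberg adjustment over all of them and calls at an adjusted p under 0.05. Fold changes on this scale understate changes of low genes; folds in words are ratios of mean FPKM. FPKM are not counts, so no count test was run. The relative depth rests on a ratio held by 8.68% to 12.1% of genes under 0.3 FPKM. Replicates are single mice. The p-values rest on the spread of 2 per genotype, combined by eBayes with a variance trend over all genes tested.

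Members and gene lists were chosen with earlier results of these data known. The text names all members, Cnot3, list genes that passed or had the smallest p, the most abundant markers of other cells and the nearest profiles. Inppl1, Ptpn11, Csk, Cd79b, Siglech, Pacsin1, Klrd1, Ncr1, Gzmb, Klrb1c, Prf1, the Cd3 genes and the markers at low levels were named after their values were seen. Pirb, a listed gene, was not analysed here. Some list genes that passed are not reported here.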

Additional observations from a re-analysis of the deposited data

How the results depend on the processing

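Over 13 alternatives and 10 genes, 103 of 130 log2 fold changes kept their direction and side of the threshold, 24 lost the call and 3 turned sign, all near 0: Syk (-0.0031 without Cnot3 fl/fl replicate 1; -0.059 to 0.076 over the 4 omissions of 1 library) and Blnk (-0.023 to 0.13). With 1 library left out, a lone sample being assumed to vary like the other genotype's, 0 of the 10 genes were called by limma (4 or 5 at an unadjusted p under 0.05), and the calls over all genes were 2 to 34 higher and 0 to 20 lower, against 685 and 361. The median of the 10 genes was then 0.25 to 0.34, and 0.33 with quantile normalization. With no filter on low values (16296 genes) 4 genes were higher and 1 lower, with 0 of the 10 by limma (7 at an unadjusted p under 0.05); without the trend 242 were higher and 69 lower, with 1 of the 10. The replicate block gave 456 higher calls; same-numbered libraries shared deviations with a correlation of 0.14 over genes, and no label says that a number marks a shared litter or day. DESeq2 was not run, since the files hold no counts. Other causes of these changes were not tested, and the unknown depth allows no counting error.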
